A study of Zea mays with 4 samples.

Results

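Predicted miRNAs of 22 to 23 nt were examined in small RNA libraries of maize pollen and silk. The members were the entries of the deposited miRNA table that the authors predicted from hairpins, rather than matched to a known miRNA, and whose mature sequence was 22 or 23 nt long. There were 29 of them among 270 entries, of which 109 were predicted. The study's text counts fewer predicted miRNAs than these 109, so some members may not be among those it counts. Of the 29, 28 were of 22 nt and 1 was of 23 nt. They came from 22 of the 65 predicted hairpins, 15 from the 5p arm and 14 from the 3p arm. Each is named here by its hairpin and arm, so that 11-3p is the 3p arm of hairpin 11, and a last number separates entries of the same arm.

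All material came from the maize inbred line B73, and each tissue gave 1 library. Mature pollen (MP) was shaken from tassels, and in vitro germinated pollen (GP) was the same kind of pollen after 30 min in liquid medium. Mature silks (MS) were harvested unpollinated once they had grown out of the bracts, and pollinated silks (PS) were taken 30 min after excess pollen had been applied and loose grains shaken off. The PS library therefore holds RNA of adhering grains and pollen tubes together with silk RNA. As the tissues are mixtures of cells, fewer cells of a type and less RNA per cell cannot be told apart. Expression levels are given as reads and as TPM, the library's reads scaled to a total of 1000000 clean reads. MP held 3638941 clean reads, GP 10575042, MS 5775303 and PS 5205129, so that 1 read was worth 0.275, 0.0946, 0.173 and 0.192 TPM. No tissue was sequenced more than once, so differences lack a replicate check within the sequencing data. Each test compares the reads of 2 libraries, not the tissues. With stem-loop real-time RT-PCR, the study also measured the miRNAs it lists as changed with germination or pollination. It reports patterns similar to those of sequencing, slightly different for a few. Those measurements were not examined here. Intervals are exact, at 95%, and cover counting error only.

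Plant miRNAs are cut from the stem of a hairpin transcript by a Dicer-like enzyme as a duplex whose strands each end in a short 3′ overhang. One strand, the 5p or the 3p arm, is usually kept in an Argonaute protein and guides it to transcripts of complementary sequence, while the other is degraded. Argonaute proteins sort plant small RNAs partly by their first base. In plants, miRNAs of 22 nt are known for setting off the production of secondary small interfering RNAs from the transcripts they cut.

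The sequences of the members on which the results turn, and of 2 entries set beside them, are given as in the deposited table, 5′ to 3′, with T for U. The seed, bases 2 to 8, is in capitals. The first 6 had a higher level in MS and in PS than in either pollen library. The next 2 are the arms of hairpin 55, whose 5p arm was abundant in all tissues, and the next 6 were read mostly in pollen. The last 2 are the other arm of hairpin 53, without its seed marked, and 1 of 3 known sequences that lie equally near to 33-5p.
11-3p: cGGATGGGtgctgcgcggtggt
33-5p: tAGCCAAGcatgatttgcccgt
40-5p: tGGTCATCtcggtcgaaggtga
18-3p: aGAGAAAGctcgcgataaggtt
10-3p: aGTCAACGctgatttcgctgaa
53-5p: aACCATAAagtttgtagcacgg
55-5p: cTGTTGCTgaatttgatgagcg
55-3p: cTCATCAAattcagcaacagca
57-5p: aAACACATatgtgatgtagcgg
57-3p: cCTAGATGacatgtgtgttttt
36-3p: cAATTAGGtactaaaatggaat
6-3p: aTATTAATtaagtaatcattga
23-5p: cGGTGTAAcaccctgaatttga
21-5p: gTCTGCAAgcttgttaaggggc
53-3p: acccgtgctgcaagctttatggtt
zma-miR169i: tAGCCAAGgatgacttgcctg

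No sequence was listed for more than 1 member. Of the 29 seeds, 27 were found in no other sequence of the table. The exceptions were 25c-5p-1, the entry of 23 nt, which shares its seed with 2 predicted entries of 24 nt (25a-5p and 25c-5p-2), and 33-5p, which shares its seed with 7 distinct miR169 sequences. The first base was A in 13 members, C in 9, T in 5 and G in 2. Among the 72 distinct known sequences it was T in 54, and among the 42 predicted entries of 24 nt it was A in 29. The G and C content ran from 13.6% in 6-3p to 77.3% in 11-5p-2, with a median of 45.5%. The 9 members that begin with C carried 86.2% of the members' reads in MS and 86.8% in PS, where 11-3p is the main sequence, and 62.9% in GP, where 57-3p and 55-5p are. Without 11-3p the members that begin with C held 53.1% in MS and 34.4% in PS.

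Most members were of low abundance. In at least 1 library 22 members had 10 reads or more, and all of them are of 22 nt. The other 7 had at most 6 reads in any library. MP held a read for 21 of the 29, GP for 24, MS for 24 and PS for 15. The predicted entries of 20 to 21 nt were also found least often in PS, with 31, 34, 26 and 15 of 38. The predicted entries of 24 nt went the other way, with 6, 13, 38 and 36 of 42. Reads in all 4 libraries were found for 9 members, in pollen alone for 4 and in silk alone for 5.

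**Figure D1:**
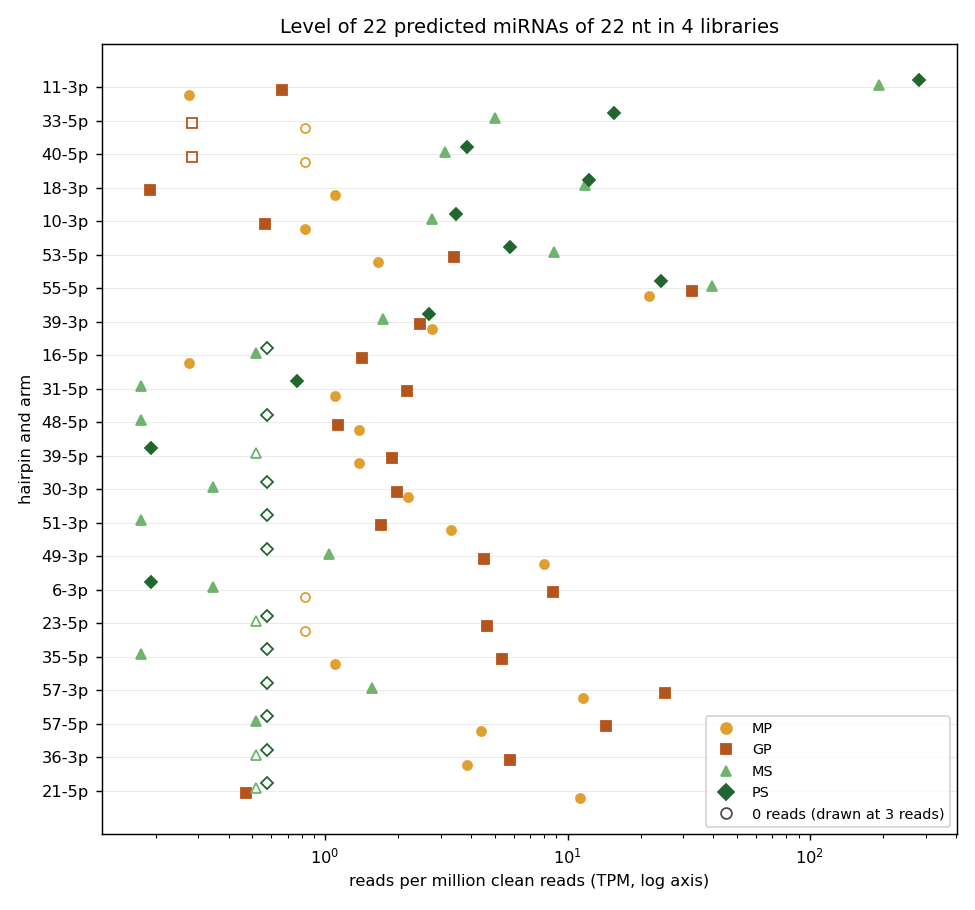
Level of the 22 members with at least 10 reads in a library. The x axis is TPM on a log scale, each row is a member, and filled symbols are the 4 libraries; an open symbol is a library with 0 reads, drawn at the level of 3 reads. 11-3p lies far to the right in both silk libraries (193 and 280.5 TPM), 55-5p is within 21.7 to 39.5 TPM in all libraries, and the lower rows are at or near 0 reads in silk.

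The most abundant member, 11-3p, was a silk sequence. Pollen gave 1 read in MP and 7 in GP, whereas silk gave 1112 in MS and 1460 in PS, which is 0.275, 0.662, 193 and 280.5 TPM. Both silk libraries lay far above both pollen libraries. The ratio of MS to MP was 701 (interval 125 to 27699) and that of PS to GP was 424 (205 to 1056). PS was 1.46 times MS (1.35 to 1.58, adjusted p = 1.87e-20 by Fisher's exact test), a difference beyond counting error but under the limit for a call. The sequence is listed for 2 copies of its hairpin, and its G and C content is 72.7%. Its 5p partner 11-5p-2 had 4 reads in MS and 0 in the other libraries.

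A group of 5 further members with 10 reads or more was higher in MS and PS than in MP and GP. 33-5p had 0 reads in both pollen libraries, 29 in MS and 81 in PS, which is 5.02 and 15.6 TPM. 40-5p likewise had 0 reads in pollen, with 18 in MS and 20 in PS, or 3.12 and 3.84 TPM. A count of 0 is taken here to allow up to 3 reads, a floor that is 0.824 TPM in MP and 0.284 TPM in GP. The exact interval for 0 reads reaches a little higher, to 1.01 TPM in MP and 0.349 TPM in GP for 33-5p and 40-5p. For 18-3p, MP had 4 reads and GP 2, and MS had 68 and PS 64, or 1.10, 0.189, 11.8 and 12.3 TPM. The levels of 18-3p in the silk libraries differed by less than counting error. 53-5p had 6, 36, 51 and 30 reads in MP, GP, MS and PS, or 1.65, 3.40, 8.83 and 5.76 TPM. 10-3p had 3, 6, 16 and 18 reads, or 0.824, 0.567, 2.77 and 3.46 TPM. In neither of these 2 did a pollen library reach the level of a silk library.

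Hairpin 55 gave a member that was abundant in all 4 libraries. 55-5p gave 79 and 346 reads in MP and GP and 228 and 127 in MS and PS, or 21.7, 32.7, 39.5 and 24.4 TPM. MS was highest in TPM, and pollen and silk overlapped. It was the most abundant member in both pollen libraries and the second in both silk libraries. The log2 ratios were 0.59 for GP over MP, -0.69 for PS over MS, 0.86 for MS over MP and -0.42 for PS over GP. In each comparison the adjusted p was under 0.01, from 0.00695 down to 7.61e-06, and the ratio was under the limit for a call. The log2 ratio of MS over MP was -1.01 with median-ratio factors and -1.65 when scaled to the reads of all distinct sequences, so its direction depended on the scaling. 39-3p was also read in every library, with 10 and 26 reads in pollen (MP, GP) and 10 and 14 in silk (MS, PS), or 2.75, 2.46, 1.73 and 2.69 TPM, which overlap.

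Pollen was the main source of the other named members. Both arms of hairpin 57 were among the most abundant there. 57-3p was read 42 times in MP and 268 times in GP, but 9 times in MS and 0 times in PS, or 11.5, 25.3, 1.56 and 0 TPM. 57-5p had 16, 153, 3 and 0 reads, or 4.40, 14.5, 0.519 and 0 TPM. Each arm was highest in GP and had no read in PS, where the floor of 3 reads is 0.576 TPM and the exact interval reaches 0.709 TPM.

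A further 7 members had MP and GP above MS and PS and at least 10 reads in 1 library, apart from 31-5p and 39-5p, described below. 49-3p gave 29 reads in MP and 48 in GP against 6 in MS and none in PS, and in TPM it was higher in MP (7.97) than in GP (4.54). 36-3p gave 14 and 61 reads in MP and GP, or 3.85 and 5.77 TPM, and 0 in silk. 21-5p gave 41 and 5, and also 0 in silk, which is 11.3 TPM in MP against 0.473 TPM in GP. 35-5p gave 4 reads in MP and 57 in GP, or 1.10 and 5.39 TPM, against 1 read in MS and none in PS. 30-3p, 51-3p and 48-5p had 8, 12 and 5 reads in MP and 21, 18 and 12 in GP, with at most 2 in MS and 0 in PS. As GP was sequenced most deeply, these counts correspond to 2.20, 3.30 and 1.37 TPM in MP and to the lower levels of 1.99, 1.70 and 1.13 TPM in GP. The exact intervals of their log2 ratios of GP over MP include 0 (-1.38 to 1.24, -2.09 to 0.232 and -1.88 to 1.58). For 49-3p the adjusted p was 0.052 by Fisher's exact test. Another scaling of the libraries (TMM factors) raises these log2 ratios by 1.48, so the direction of 49-3p, 30-3p, 51-3p and 48-5p depended on the scaling.

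2 members were found almost entirely in germinated pollen. 6-3p had 92 reads in GP, or 8.70 TPM, against 0 in MP, 2 in MS and 1 in PS. 23-5p had 49 reads in GP, or 4.63 TPM, and 0 in every other library. 6-3p is listed for 2 copies of its hairpin and 23-5p for 6, and their reads cannot be assigned to 1 copy. 16-5p, at lower abundance, gave 1 read in MP and 15 in GP against 3 in MS and none in PS. 31-5p had 4, 23, 1 and 4 reads and 39-5p had 5, 20, 0 and 1, with pollen above silk in both.

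Over all 29 members, MP and GP both exceeded MS and PS in TPM for 11, against 24.9% of all 181 distinct sequences, and MS and PS both exceeded MP and GP for 9, against 49.7%. For the other 9 pollen and silk overlapped. Of the 38 predicted entries of 20 to 21 nt, pollen was higher in this way for 25 and silk for 7. Of the 42 predicted entries of 24 nt, pollen was higher for 4 and silk for 31.

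Germination was examined by comparing GP with MP. A sequence was called where the adjusted p of a 2-sided Fisher's exact test was under 0.01 and the log2 ratio of TPM was over 1.5 in size. Of all sequences with a read in either library 19.5% were called, 11.4% as higher in GP and 8.13% as lower. Of the members 24 had such a read, and 5 were called. A fold written as at least sets 0 reads to 3 and takes the other count as it stands, so it is not a bound at 95%. The limit beside it is the lower end of the exact 95% interval of the fold, from both counts as read, 0 included. The 4 higher in GP were 6-3p, at least 10.6-fold (limit 8.41), 23-5p, at least 5.62-fold (limit 4.40), 35-5p, 4.90-fold (1.81 to 18.6), and 57-5p, 3.29-fold (1.96 to 5.90). 21-5p was lower, by 23.8-fold (9.42 to 77.3, adjusted p = 1.99e-18). The study lists these 5 as changed in the same directions. By RT-PCR it reports similar patterns for its listed miRNAs, with 23-5p among a few that differed slightly. 57-3p, the other arm of hairpin 57, was 2.20-fold higher (1.58 to 3.12, adjusted p = 1.90e-06), under the limit for a call. The median log2 ratio was 0.59 over the 20 members with a ratio and 0.19 over all 82 sequences with one. It was 0.66 for the predicted entries of 20 to 21 nt and -0.33 for those of 24 nt. With TMM factors, which raise every GP over MP ratio by 1.48 on the log2 scale, 10 members were higher and 1 lower.

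Pollination was examined by comparing PS with MS. Here 8.23% of all sequences were called, 5.06% as higher in PS and 3.16% as lower, and of the 25 members with a read 1 was called. 33-5p was 3.10 times higher in PS (2.01 to 4.91, log2 ratio 1.63, adjusted p = 2.18e-07). No member was called lower. At a Fisher p under 0.05, without adjustment, 3 members were lower in PS than in MS, against 12.7% of all sequences. They were 55-5p, 57-3p with 9 reads in MS and 0 in PS (adjusted p = 0.0161), and 49-3p with 6 and 0 (adjusted p = 0.0934). Their log2 ratios, with 0 reads set to 3, were -0.69 for 55-5p, -1.435 for 57-3p and -0.85 for 49-3p, all short of the limit. A chi-square test in place of Fisher's also called 0 lower, but no change of test could call these 3. The study lists 57-3p as lower in PS, with a far larger log2 decrease than the -1.435 obtained here with 0 reads set to 3. It also lists 33-5p as higher in PS, and reports similar patterns by RT-PCR for the miRNAs on this list. The study's silk limits, applied to the ratios used here, called 0 members lower. With TMM factors the log2 ratio of 33-5p was 1.39, and scaled to the reads of all distinct sequences of the table it was 1.47, both short of the limit. In both cases 57-3p was the 1 member called, as lower. In MS but not in PS 10 members had a read, all with at most 9 reads, and in PS but not in MS 1 had, 39-5p with 1 read. The 8 members with at least 20 reads in GP and a TPM there at least 10 times that in MS together gave 85 reads in MP and 723 in GP, against 16 in MS and 6 in PS. They were chosen by their GP and MS values, so these counts are a description and support no comparison between the libraries. The part of pollen RNA in the PS values of other members was not tested.

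Silk and pollen were compared before pollination (MS against MP) and after it or germination (PS against GP), which share no library. In MS against MP, 42.6% of all sequences were called, 29.0% as higher in MS and 13.6% as lower. Of the 27 members with a read, 5 were higher and 6 lower. Those higher were 11-3p, 18-3p (10.7-fold, 4.00 to 40.4), 53-5p (5.36-fold, 2.30 to 15.3), 33-5p (at least 6.09-fold, limit 4.65) and 40-5p (at least 3.78-fold, limit 2.77). Those lower were 21-5p (at least 21.7-fold, limit 16.9), 51-3p (19.0-fold, 2.82 to 814), 57-5p (8.46-fold, 2.42 to 45.3), 49-3p (7.67-fold, 3.13 to 22.6), 57-3p (7.41-fold, 3.55 to 17.3) and 36-3p (at least 7.41-fold, limit 5.26).

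In PS against GP, 62.6% of all sequences were called, 42.5% as higher in PS and 20.1% as lower. Of the 28 members with a read, 5 were higher and 10 lower. Besides 11-3p those higher were 18-3p (65.0-fold, 17.3 to 548), 33-5p (at least 54.9-fold, limit 43.6), 40-5p (at least 13.5-fold, limit 10.0) and 10-3p (6.09-fold, 2.32 to 18.8). Of those lower, 57-3p (at least 44.0-fold, limit 35.5), 57-5p (at least 25.1-fold, limit 20.2) and 6-3p (45.3-fold, 7.93 to 1808) differed most. 36-3p, 35-5p, 23-5p and 49-3p were lower by at least 10.0-, 9.35-, 8.04- and 7.88-fold (limits 7.90, 7.36, 6.30 and 6.16). 39-5p was lower by 9.84-fold (1.57 to 408), and 30-3p and 51-3p by at least 3.45- and 2.95-fold (limits 2.56 and 2.16). 53-5p was 1.69 times higher in PS (1.01 to 2.83, adjusted p = 0.0522) and was not called.

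In both of these comparisons 4 members were called higher in silk, 11-3p, 18-3p, 33-5p and 40-5p, against 24.3% of all 181 sequences. The 5 called lower in both were 36-3p, 49-3p, 51-3p and both arms of hairpin 57, against 10.5%. The median log2 ratio of the members was -2.03 for MS over MP (20 members with a ratio) and -1.40 for PS over GP (22), against 0.92 and 2.35 over all sequences. For the predicted entries of 20 to 21 nt these medians were -1.60 and -2.18, and for those of 24 nt 0.83 and 3.29. Over the 10 members read in both PS and GP the median was 0.44, since 12 of the 22 ratios are bounds. In none of the 4 comparisons were 12 of the 29 members called, against 36.5% of all sequences. The direction of some members depended on the scaling, as TPM is relative to all clean reads. Scaled to the reads of all distinct sequences of the table, 53-5p was no longer higher in MS (log2 ratio -0.093) nor 10-3p in PS (-0.41), and the members called higher and lower were 1 and 13 in MS and 3 and 18 in PS. With median-ratio size factors they were 1 and 12 in MS and 4 and 16 in PS, and with TMM factors 4 and 15 in PS.

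**Figure D2:**
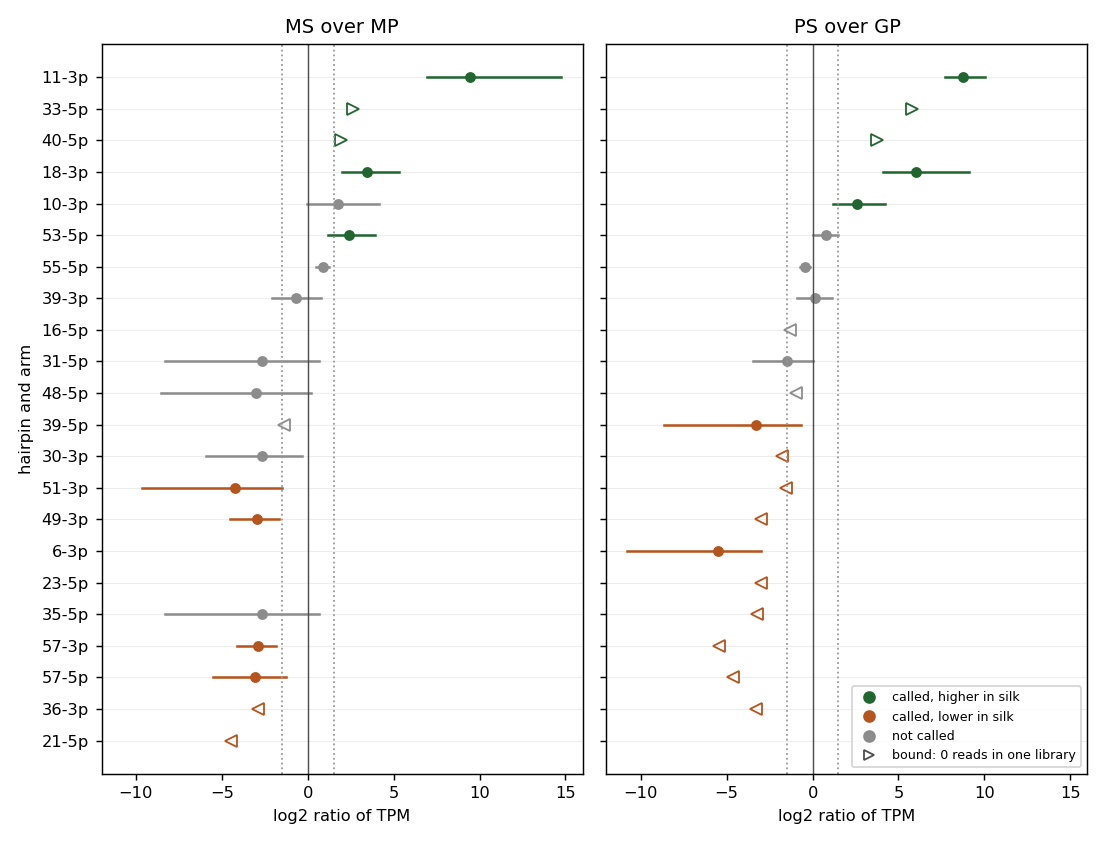
Log2 ratios of TPM between silk and pollen for the 22 members with at least 10 reads in a library, MS over MP at left and PS over GP at right. Points have exact 95% intervals, triangles are bounds where one library had 0 reads, dotted lines are the limits of 1.5 and -1.5, and no symbol is drawn where no ratio or bound could be given. 11-3p, 33-5p, 40-5p and 18-3p are to the right in both panels, and the rows from 21-5p to 39-5p that are colored are to the left.

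The summed level of the members depended on 11-3p. Over all 29 it was 79.4 TPM (70.5 to 89.1) for MP and 121 (114 to 128) for GP, and 273 (260 to 287) for MS and 351 (335 to 368) for PS. 11-3p gave 70.5% of the members' reads in MS and 79.8% in PS, but 0.346% in MP and 0.548% in GP. Without it the sums were 79.1 TPM for MP and 120 for GP, and 80.5 (73.4 to 88.2) for MS and 70.9 (63.8 to 78.5) for PS. The ratio of MS to MP went from 3.44 (3.03 to 3.91) to 1.02 (0.876 to 1.18), and that of PS to GP from 2.91 (2.71 to 3.13) to 0.590 (0.524 to 0.663). The ratio of PS to MS went from 1.29 (1.20 to 1.38) to 0.880 (0.766 to 1.01), while that of GP to MP stayed at 1.52. Scaled to the reads of all distinct sequences, the log2 ratio of the full sum was -0.73 for MS over MP and -1.48 for PS over GP, against 1.78 and 1.54 in TPM. In TPM the 28 other members together were at a similar summed level in MP and MS and lower in PS than in GP. Among the reads of all predicted entries, the members held 30.8% and 35.6% in pollen (MP, GP) and 63.7% and 67.8% in silk (MS, PS), and with 11-3p left out of both counts 30.8%, 35.4%, 34.1% and 29.8%.

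**Figure D3:**
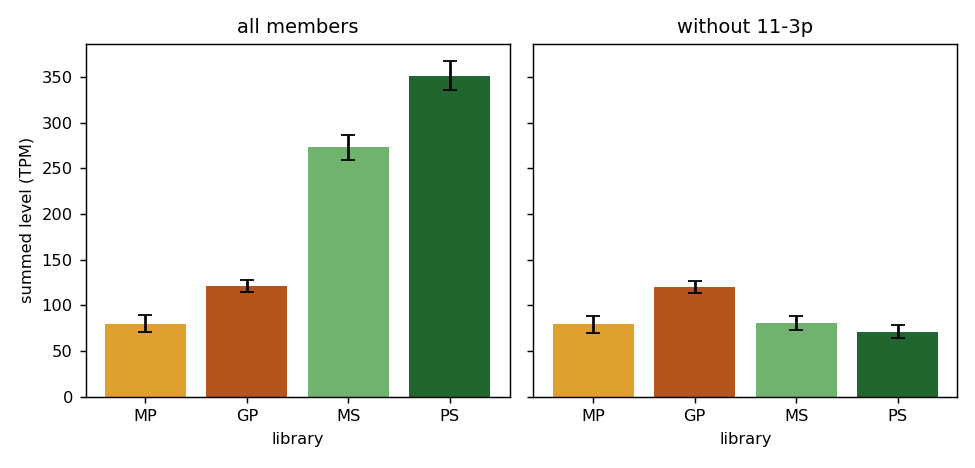
Summed level of the members in TPM (y axis, from 0) in each library (x axis), for all 29 at left and for 28 without 11-3p at right. Bars are sums of 1 library and error bars are exact 95% Poisson intervals; MS and PS stand at 273 and 351 TPM at left and at 80.5 and 70.9 TPM at right.

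Both arms were listed for 14 of the hairpins that hold a member, and for 7 of these both arms are members. The more abundant arm had 1.85 (hairpin 57) to 645 (hairpin 11) times the reads of the other over the 4 libraries, with a median of 7.44. In hairpin 55 the 5p arm had 780 reads and the 3p arm 4. Hairpin 57 was the most balanced, with 172 reads of 5p and 319 of 3p. When the listed arms were laid against each other, 55-5p and 55-3p paired at 20 of 20 facing bases and left 3′ ends of 2 nt on both strands. Ends of 2 nt on both strands were also found for hairpins 57 and 35, with 17 of 20 bases paired, and for 11-5p-2 with 11-3p, with 14 of 20. No other pair of listed arms had such ends. For example, they were of 1 nt on both strands in hairpin 16 and of 3 nt for 6-5p-1 with 6-3p. The arms of hairpin 39 paired at 18 of 19 facing bases, but their 3′ ends fell 3 nt short on each strand. The 5p arm of hairpin 53, of 22 nt, paired along its whole length with the 3p arm, an entry of 24 nt. There the 3p arm had no 3′ overhang, and the 3′ end of the 5p arm fell 2 nt short.

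Whether the arms were used in the same proportion in pollen and silk was tested on the pooled reads of MP and GP against MS and PS. Of the 28 predicted hairpins that could be tested 28.6% differed at an adjusted p under 0.01, and of the 13 that hold a member 3 did. In hairpin 53 the 5p arm gave 75.0% of the reads in pollen (61.6 to 85.6, 56 reads) and 17.8% in silk (14.4 to 21.6, 455 reads, adjusted p = 1.23e-16). By library the share was 46.2% for MP and 83.7% for GP against 17.2% for MS and 18.9% for PS, so the shares as read did not overlap between pollen and silk. The MP share rests on only 6 reads of 5p and 7 of 3p, and most pollen reads came from GP (36 and 7). 53-3p itself gave 7 reads in each pollen library, 245 in MS and 129 in PS. In hairpin 39 the 5p share was 41.0% in pollen (28.6 to 54.3) and 4.00% in silk (0.101 to 20.4, adjusted p = 0.00192), and with GP and MS alone it no longer passed (adjusted p = 0.0368). In hairpin 6 all 92 pollen reads were of 3p, all of them in GP, against 3 of 8 silk reads (adjusted p = 5.21e-06), so the silk share rests on few reads. For hairpin 57 the 5p share was 35.3% in pollen (31.0 to 39.7) and in silk 3 of 12 reads were of 5p (5.49 to 57.2%), and for hairpin 55 it was 99.5% and 99.4%.

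**Figure D4:**
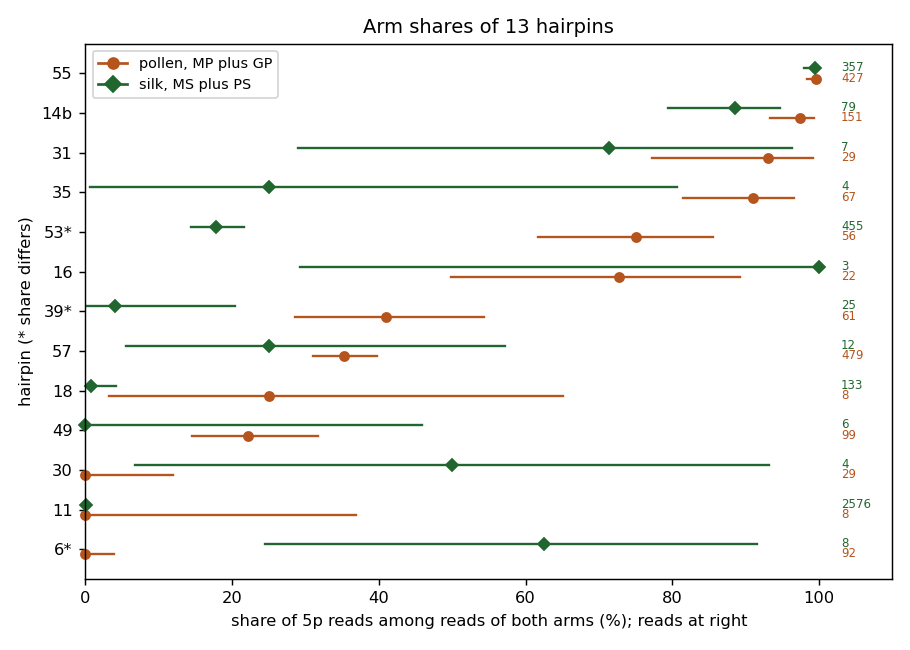
Share of the 5p arm among the reads of both arms (x axis, percent) for 13 hairpins (y axis) in pollen, MP plus GP, and in silk, MS plus PS. Lines are exact 95% intervals, the numbers at right are the reads of both arms, and an asterisk marks the 3 hairpins whose share differed; hairpin 53 moves from 75.0% in pollen to 17.8% in silk.

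33-5p was the only member within 3 mismatches of a known miRNA. Over 21 facing bases it differs from miR169i, whose sequence is also listed as miR169j and miR169k, by C9G, T14C and C20T, from miR169p by C9G, T14C and C20G, and from miR169l by A7G, C9G and C20T. Positions are counted from the 5′ end of 33-5p, and the base of 33-5p is given first. None of the differences from miR169i and miR169p lies in the seed. The miR169 family is known in plants for cutting transcripts of NF-YA transcription factor subunits. miR169i gave 3 and 10 reads in MP and GP and 18 and 33 in MS and PS, and miR169p had 1, 0, 19 and 38. Like 33-5p, both were higher in PS than in MS and higher in silk than in pollen in TPM. The authors added reads of variants of up to 2 bp in length to each entry. The differences listed here are base changes at facing positions, and whether these entries share reads was not tested. 49-3p, a pollen member, differs from 26-3p, an entry of 21 nt, by G3T and C14T over 20 facing bases, and 26-3p had 9, 1, 19 and 7 reads in MP, GP, MS and PS.

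The deposited table lists predicted target sites for 7 of the 29 members, in 12 genes. For the predicted entries of 20 to 21 nt it lists sites for 21 of 38, and for those of 24 nt for 1 of 42. Target transcripts were not measured in these libraries. 11-3p has no listed site, nor have 57-5p, 57-3p, 18-3p, 40-5p, 6-3p, 36-3p, 23-5p or 21-5p. 33-5p has sites in GRMZM2G078124 and GRMZM2G323271, and both genes are also listed for miR169 entries, the first for miR169i, miR169l and miR169p among others and the second for miR169i and miR169p. 55-5p, abundant in all tissues, has sites in GRMZM2G147560 and GRMZM2G168747, annotated as natural resistance-associated macrophage proteins, a family of metal ion transporters. Its other arm 55-3p and 39-3p share a listed target, AC185233.3_FGT012. For 39-3p there are also AC216349.3_FGT005, AC210158.3_FGT004 and GRMZM2G430780, the last a member of the protein kinase superfamily.

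Other members had targets as well. 49-3p has sites in 6 transcripts of GRMZM2G473533, of a family of sterol reductases, and in GRMZM2G449019, a UDP-glucosyl transferase, an enzyme class that attaches glucose to small molecules. 39-5p has 1 site in GRMZM2G053927, annotated as a sodium and hydrogen antiporter, which exchanges these ions across membranes. 16-5p has 1 in GRMZM2G170870, a ribosomal protein of the large subunit.

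Of the 7 members with fewer than 10 reads in every library, 6 were the less abundant arm of their hairpin, and 25c-5p-1 was a minor entry of its arm. 16-3p had 6 reads in GP and none elsewhere, and 35-3p had 3, 3, 2 and 1 reads in MP, GP, MS and PS. 55-3p gave 1 read in each pollen library and 2 in MS. 6-5p-1 had 3 reads in MS and 2 in PS, so hairpin 6 gave its 3p arm in GP and both arms in silk. 14b-3p-1 had 1, 3, 4 and 5 reads beside a 5p arm of 21 nt with 23, 124, 29 and 41. 25c-5p-1 had 1 read in each silk library. In all, 6 members had no more than 5 reads in any library. The study states that it kept predicted miRNAs only above 5 reads in some library, a limit that these 6 do not pass.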

How the data were processed

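The deposited table holds, for each miRNA name, whole read counts in 4 libraries (MP, GP, MS and PS). The authors removed adaptors and low-quality reads, aligned the clean reads to B73 by SOAP, discarded reads of rRNAs, tRNAs and snoRNAs, and predicted hairpins with Einverted, RNAfold and MirCheck. They added variants of up to 2 bp in length to each count. To obtain the deposited TPM values the authors scaled each library to 1000000 clean reads, and recomputing them gave the same values. The chi-square p-values deposited by the authors compare library pairs and were not used. The number of per-sample columns not used was 0. The prefix that marks a predicted entry is left out of the names. Target annotations are the study's.

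The counts were compared between libraries with a 2-sided Fisher's exact test against all other clean reads (SciPy 1.17.1, Python 3.11.15), with Benjamini-Hochberg adjustment over all of 181 distinct sequences with a read in either library. The 161 known entries have 72 distinct sequences. A count of 0 was set to 3 reads for ratios, giving bounds, and where neither count was over 3 no ratio was computed. Members with at least 10 reads in a library were named. Known miRNAs were named where a member differed from them by at most 3 bases over at least 18. No model of replicates could be fitted with 1 library per tissue. edgeR 4.0.16 and DESeq2 1.42.0 (R 4.3.3) gave only TMM and median-ratio factors for alternatives. Alternatives were these scalings, a chi-square test, no adjustment, filters on reads, another limit on the ratio, added reads, entries taken singly, and other pooling of arms. Counts of calls without 11-3p and a minimum of 10 reads for arms were chosen after seeing the data. The script was tested on simulated data. The tissue labels were not checked against marker miRNAs. The members, lists and tests were chosen with earlier results of these data known.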

Additional observations from a re-analysis of the deposited data

How the results depend on the processing

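No paired analysis was possible because each tissue has 1 library, and for the same reason no library could be left out. Of the 32 calls of members, all 32 kept direction and call with a chi-square test. They also did with 1 read added to each count and with every entry on its own. Unadjusted p and a log2 limit of 1 only loosen the rule, so there every call was bound to be kept. A minimum of 10 reads in the 2 libraries also kept all 32, but it could drop none, as every call had more reads than that. TMM factors kept 30, median-ratio factors 27, and scaling to the reads of all distinct sequences 25 of the 31 that still had a ratio. These scalings shift every log2 ratio of a comparison alike, by 1.48, 0.26 and 0.34 for GP over MP, -0.25, 0.29 and -0.16 for PS over MS, 0.18, -1.87 and -2.51 for MS over MP and -1.55, -1.84 and -3.02 for PS over GP.

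With TMM factors 11 members were called in GP against MP. The log2 ratio of the summed level, 0.61 for GP over MP, became 2.09, 0.87 and 0.95 under the 3 scalings in that order. For PS over MS it went from 0.36 to 0.12, 0.66 and 0.20, and without 11-3p to -0.18. For MS over MP it went from 1.78 to -0.089 with median-ratio factors and -0.73 with the reads of all distinct sequences, and to 0.025 without 11-3p. For PS over GP it went from 1.54 to -0.0057, -0.30 and -1.48, and to -0.76 without 11-3p. Among single members, 53-5p reversed in PS over GP under the 3 scalings (-0.79, -1.08 and -2.26) and in MS over MP under the last (-0.093), where 10-3p also reversed in PS over GP (-0.41). 55-5p reversed in MS over MP with median-ratio factors (-1.01) and with the reads of all distinct sequences (-1.65). Calls of 18-3p, 33-5p and 40-5p in MS over MP, of 33-5p in PS over MS and of 40-5p in PS over GP were lost under at least 1 scaling without a change of direction. The call of 10-3p in PS over GP was also lost with TMM and median-ratio factors. With a minimum of 5 reads, 12 members were found in MP, 10 in MS and 9 in PS. Among the hairpins whose arm share differed, 2 passed with GP against MS alone, and 2 with at least 10 reads in pollen and in silk, where hairpin 6 had too few silk reads. Depth limits the low members: the floor of 3 reads taken for a count of 0 is 0.824 and 0.284 TPM in pollen (MP, GP) and 0.519 and 0.576 TPM in silk (MS, PS).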

Other observations

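Pollen-type sequences were also followed over all predicted entries, with no test. Of the 109 entries, 23 had at least 20 reads in GP and a TPM there at least 10 times that in MS. Together they gave 264 reads in MP and 2150 in GP against 45 in MS and 12 in PS. As GP and MS values chose them, these counts are a description and support no comparison between the libraries.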
